A study of Mus musculus with 12 samples.

Results

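The delayed rectifier potassium channel genes of the mouse heart were followed through myocardial infarction and through transgenic expression of the long non-coding RNA CCRR. The set holds 9 genes, Kcnq1, Kcnh2, Kcna5, Kcnv2, Kcne1, Kcne2, Kcne3, Kcne4 and Kcnab1, out of 36981 genes on the array. They were chosen by name, as every non-control probe whose gene name in the files is one of them, which gave 15 probes. Heart RNA of 12 samples was hybridised to Agilent 1-colour arrays, 1 array per sample, in 4 groups of 3. WT hearts came from C57/BL6 mice without infarction. WT+MI hearts came from C57/BL6 mice with myocardial infarction. TG hearts were from mice transgenic for CCRR without infarction, and TG+MI hearts from CCRR transgenic mice with infarction. No strain is stated for the transgenic samples, so strain and transgene cannot be told apart. The labels give neither the promoter of the transgene, the age of the mice nor the time from infarction to sampling. The level of CCRR itself was not analysed here. They do not say that the samples of a group are separate mice, so p-values describe the spread among these samples alone, and that spread may be technical.

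Delayed rectifier channels open slowly when a heart cell depolarises and let potassium leave it, which ends the action potential. Their pore is built of alpha subunits. Kcnq1 carries the slow current (IKs) and Kcnh2, also called ERG, the rapid current (IKr), while Kcna5 carries an ultrarapid current that adult mouse ventricle relies on more than human ventricle does. The alpha subunit Kcnv2 forms no channel alone and alters channels built by others. The single-pass subunits Kcne1 to Kcne4 and the cytoplasmic beta subunit Kcnab1 change how the pores open, close or reach the membrane.

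A level below is the log2 processed signal of a probe minus the 75th percentile of its array, so 0 is the signal at that percentile and negative values are dimmer. A difference is a difference of group means on that log2 scale. Levels are compared between samples of the same probe, never between probes. A probe counts as measured on an array where the scanner software called it well above background.

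The alpha subunits Kcnq1 and Kcnh2 had more than 1 probe, and the exon-spanning or upstream probes of these genes are printed because they read another stretch of the transcript than the brightest probe does. The Kcnq1 probe A_55_P2745108 lies at chr7:150334693-150335442 on mm9, plus strand, where its 60 bases cover 750 genomic bases and so span a splice junction. The Kcnq1 probe A_66_P102591 lies at chr7:150370348-150370407, plus strand, at base 923 of its transcript. The Kcnh2 probe A_51_P131175 lies at chr5:23827188-23827460, minus strand, where 60 bases cover 273 genomic bases. The 3 sequences are given from 5′ to 3′ in lower case, with no part marked.
Kcnq1 probe A_55_P2745108: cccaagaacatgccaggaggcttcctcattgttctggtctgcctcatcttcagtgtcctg
Kcnq1 probe A_66_P102591: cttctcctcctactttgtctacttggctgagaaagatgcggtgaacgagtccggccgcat
Kcnh2 probe A_51_P131175: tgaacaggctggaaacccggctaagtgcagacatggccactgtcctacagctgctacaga

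The brightest Kcnq1 probe, A_55_P2086203, lies at chr7:150612887-150612946, plus strand, at base 2968 of its transcript, and shares 51 bases with its neighbour A_55_P2094641, so these 2 probes read nearly the same stretch. The fifth probe with the name Kcnq1, A_55_P2745114, lies at chr7:150295215-150295274 upstream of the others and belongs to another transcript record. The brightest Kcnh2 probe, A_55_P2012729, lies at chr5:23825407-23825466, minus strand, at base 4161. The other members' probes lie at chr16:92348745-92348804, minus strand (Kcne1), chr16:92298155-92298214, plus strand (Kcne2), chr7:107333062-107333121, plus strand (Kcne3), chr1:78815838-78815897, plus strand (Kcne4), chr6:126482573-126482632, minus strand (Kcna5), chr19:27397662-27397719, plus strand (Kcnv2), and chr3:65182004-65182063 and chr3:65162678-65162737, plus strand (Kcnab1). The files give positions, not exons or untranslated regions, and the placement of the probes within the gene models was not analysed here.

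Both members that rose after infarction in wild-type hearts, Kcne3 and Kcne4, have a promoter window in RefSeq on GRCm38.p6, covering 250 bases before to 50 after a transcription start. The windows of Kcne4 (chr1:78816661-78816960, plus strand) and of the upstream start of Kcne3 (chr7:100176420-100176719, plus strand) are printed with motif matches in capitals.
Kcne4 promoter: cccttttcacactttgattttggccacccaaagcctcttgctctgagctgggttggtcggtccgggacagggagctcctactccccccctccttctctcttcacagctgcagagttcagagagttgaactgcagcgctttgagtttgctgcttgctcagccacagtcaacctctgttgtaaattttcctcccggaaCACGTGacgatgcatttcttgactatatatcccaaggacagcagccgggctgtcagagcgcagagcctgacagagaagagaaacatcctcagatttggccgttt
Kcne3 promoter: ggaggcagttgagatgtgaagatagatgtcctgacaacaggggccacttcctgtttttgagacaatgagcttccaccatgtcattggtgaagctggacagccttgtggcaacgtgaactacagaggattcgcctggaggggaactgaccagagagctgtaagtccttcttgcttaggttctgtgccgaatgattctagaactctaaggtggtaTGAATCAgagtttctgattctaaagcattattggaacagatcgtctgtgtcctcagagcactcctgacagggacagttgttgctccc

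The Kcne4 window held an E-box, CACGTG, that begins 54 bases before the start. On either strand, 7.15% of 32851 promoter windows of the same length held that motif. The Kcnab1 windows at starts 2 and 3 also held CACGTG, and Kcnab1 did not pass in WT+MI against WT. The upstream Kcne3 window held a match to the AP-1 motif TGANTCA that begins 37 bases before the start, and 7.81% of the windows held that motif. The window at the downstream start of Kcne3 held 2 GC boxes (GGGCGG) and no match to TGANTCA. Kcnh2, at chr5:24329542-24329841 on the minus strand, had a window with 74.3% G and C and 3 GC boxes, a motif in 35.7% of the windows. The Kcna5 window held none of the 7 motifs searched on both strands, which were the AP-1 motif, the E-box and the GC box above, the TATA box TATAAA (13.6% of windows), the GATA motif AGATAA (11.2%), the MEF2 core (3.69%) and the NF-kappaB motif (4.79%). These matches are letters in a window and were not tested as binding sites.

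Across the whole series, 62976 features were read on each array, between 47.0% and 55.2% of probes per array were well above background, and 0 spots were saturated. The lowest Spearman correlation between any pair of arrays was 0.909. The 3 TG+MI arrays and TG 3 were on slide 2, and all others on slide 1, so that TG+MI and WT+MI shared no slide. All 10 ventricular cardiomyocyte markers examined were well above background on every array, with a log2 summed level between 11.39 and 12.19. The summed level of 5 atrial markers was high on all TG arrays (at least 7.85), on WT+MI 1 (8.29) and on TG+MI 2 (6.39), and lay between 0.78 and 2.76 on the other 7 arrays. On every WT array 1 of these 5 markers was well above background, with Bmp10 and Dhrs9 on none, and on every TG array 3 of 5 were, with Dhrs9 on none. In RNA of heart tissue, fewer cells of a type and less RNA per cell cannot be told apart.

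After infarction in wild-type hearts, the pore subunits of the slow and the rapid current fell and 2 of the Kcne subunits rose. Of the 9 members, 7 were bright enough to be tested, and 4 passed the test, 2 lower (Kcnq1 and Kcnh2) and 2 higher (Kcne3 and Kcne4). The background is high in this comparison, since 47.9% of all 19761 genes tested passed, 18.6% higher and 29.3% lower, and 4 of 7 lies near that share. The median difference of the 7 members was -0.46, beside -0.14 for all genes tested. In the comparison of TG with WT, 0 of the 7 members passed limma after Benjamini-Hochberg adjustment, 3 had an unadjusted p under 0.05, and 2.62% of all genes passed, 1.49% higher and 1.13% lower. In TG+MI against WT+MI, Kcnh2 alone passed, being higher in TG+MI, where 12.2% of all genes passed, 7.79% higher and 4.38% lower. In TG+MI against TG, Kcne1 and Kcnab1 passed, both lower, where 8.85% of all genes passed, 5.21% higher and 3.64% lower. For the interaction, that is, TG+MI minus TG set against WT+MI minus WT, 0 of the 7 members passed, 1 had an unadjusted p under 0.05, and 8.90% of all genes passed, 5.85% higher and 3.05% lower. The median difference of the 7 members was 0.69 in TG against WT (-0.06 for all genes), 0.49 in TG+MI against WT+MI (0.09), -0.24 in TG+MI against TG (0.04) and -0.81 for the interaction (0.14). These comparisons share samples, so their lists are not independent of each other.

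**Figure D1:**
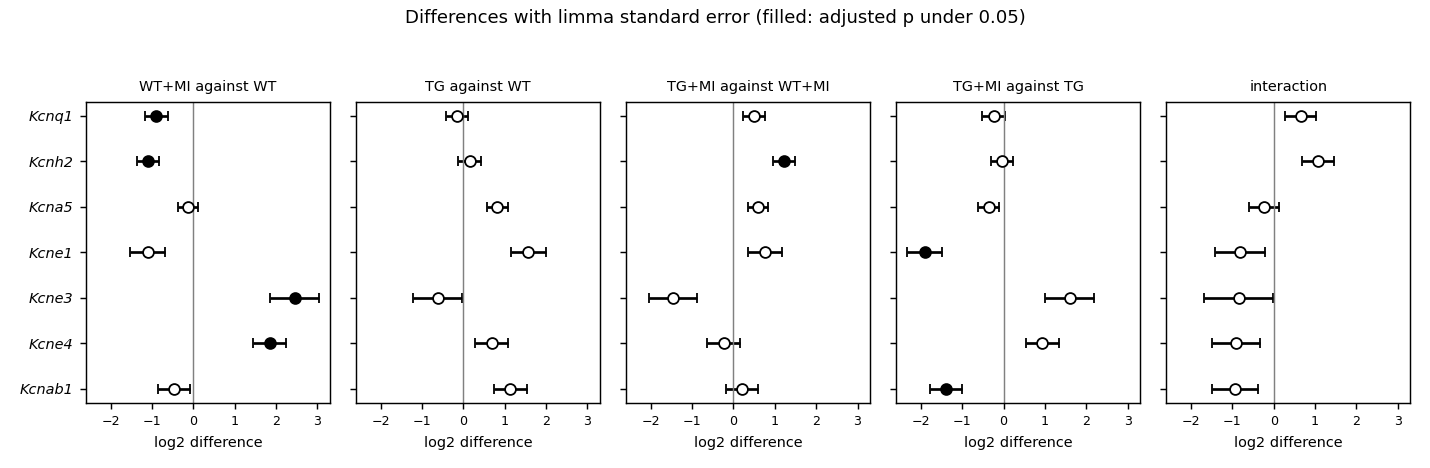
Difference in log2 level between groups for the 7 tested members, with the standard error from limma as bars, in each of the 4 pairwise comparisons and the interaction; filled points passed an adjusted p of 0.05. Kcnq1 and Kcnh2 lie left of 0 and Kcne3 and Kcne4 right of it in WT+MI against WT, and Kcnh2 at 1.22 is the filled point in TG+MI against WT+MI.

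Kcnq1, the pore of the slow delayed rectifier, was lower in every infarcted wild-type heart than in any uninfarcted one. At its brightest probe the WT arrays stood at 3.43, 3.41 and 3.31. The WT+MI arrays stood at 1.90, 2.70 and 2.88. The WT+MI and WT values did not overlap, and WT+MI 1 was the lowest of the 12. TG arrays read 3.07, 3.33 and 3.29, within and just below the WT range. TG+MI arrays read 3.52, 2.84 and 2.59, and so ran from inside the WT+MI range to above every WT value. Kcnq1 fell by 0.89 ± 0.27 (SE, n = 3 against 3) in WT+MI against WT, a 1.85-fold lower signal, with an adjusted p of 0.0202 from limma with Benjamini-Hochberg adjustment. Without WT+MI 1 the difference was -0.59 with an adjusted p of 0.0710 by the same test, and the call was also lost without WT 1 or without WT 2. Of the 10 ventricular cardiomyocyte markers, 4 fell and 0 rose in WT+MI against WT, with a median difference of -0.42, and their part in the lower Kcnq1 and Kcnh2 levels was not tested.

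The other 3 Kcnq1 probes tested were dimmer in WT+MI too. The overlapping probe A_55_P2094641 read 3.25, 3.18 and 3.23 in WT and 1.89, 2.40 and 2.43 in WT+MI, a fall of 0.98 ± 0.20 (adjusted p = 0.00305, limma with Benjamini-Hochberg over all probes tested). It passed with any 1 of the 12 arrays left out. The upstream probe A_66_P102591 read -2.75, -2.74 and -2.87 in WT and was not well above background on any WT+MI array. Its signal was at least 1.69-fold higher in WT than in WT+MI, where the WT+MI level is bounded by the lowest signal well above background on each array, or by the probe's own signal where that is higher. A probe was tested if measured on every array of 1 group or more, and this one was through WT alone, the group where it is bright, so its test is not used. The junction probe A_55_P2745108, measured on 2 of 3 WT arrays and on 0 of 3 WT+MI arrays, was at least 1.14-fold higher in WT. As it was measured on every array of TG+MI alone, its test is not used either.

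At the brightest Kcnq1 probe no comparison with a transgenic group passed the test. TG+MI minus TG was -0.24 ± 0.27, with a 95% interval from -0.84 to 0.36 and an adjusted p of 0.614. TG+MI minus WT+MI was 0.49 ± 0.27, with an adjusted p of 0.226 by limma with Benjamini-Hochberg adjustment. The junction probe A_55_P2745108 was measured on all 3 TG+MI arrays, at -2.92, -3.61 and -3.19, and was at least 1.23-fold higher in TG+MI than in WT+MI. It entered the test through TG+MI alone, so this bound is given as a description, without its p. The interaction at the brightest probe was 0.65 ± 0.38 (adjusted p = 0.261).

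The probe A_55_P2745114, which carries the name Kcnq1 but another transcript record, went the other way on part of the WT+MI arrays. It read -1.63 on WT+MI 1 and -3.06 on WT+MI 2, where it was well above background. It read -5.85 on WT+MI 3 and between -6.19 and -5.10 on the other 9 arrays, and was well above background on none of those 10. As it was not measured on all arrays of any group, it was not tested over the 12 arrays. Without WT+MI 3 it entered the test through WT+MI 1 and WT+MI 2, where it is high, and that test is not used. What transcript this signal stands for was not analysed here.

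Kcnh2, the pore of the rapid delayed rectifier, fell after infarction in wild-type hearts and stood higher in infarcted transgenic hearts than in infarcted wild-type hearts. At its brightest probe the WT arrays read 1.48, 1.31 and 1.30. The WT+MI arrays read -0.01, 0.36 and 0.45, all below every other array. TG arrays read 1.58, 1.40 and 1.58, and TG+MI arrays 1.37, 0.89 and 2.22. TG overlapped WT, and TG+MI spread around both, with TG+MI 3 the highest of the 12. Kcnh2 fell by 1.10 ± 0.27 in WT+MI against WT, a 2.14-fold lower signal, with an adjusted p of 0.00766 from limma with Benjamini-Hochberg adjustment. That call held in all 25 alternatives run, with an adjusted p of at most 0.0333.

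The second Kcnh2 probe, A_51_P131175, covers another stretch of the transcript. WT arrays read 0.15, -0.08 and 0.26, WT+MI arrays -1.14, -1.04 and -0.85, TG arrays 0.41, -0.01 and 0.45, and TG+MI arrays 0.14, -0.24 and 0.38. Only WT+MI stood apart, below all other arrays. The fall in WT+MI against WT was 1.12 ± 0.18, with an adjusted p of 0.00101 (limma, Benjamini-Hochberg over probes). Across the 12 arrays the 2 Kcnh2 probes correlated at 0.94, a description over arrays that share normalization.

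TG+MI was higher than WT+MI by 1.22 ± 0.27 at the brightest Kcnh2 probe, a 2.34-fold higher signal, with an adjusted p of 0.0290 from limma with Benjamini-Hochberg adjustment. The second probe differed by 1.10 ± 0.18, with an adjusted p of 0.0244. With slide as a block, where TG, the group with arrays on both slides, alone sets the slide effect, the differences were 1.13 ± 0.51 (adjusted p = 0.668) and 0.85 ± 0.33 (adjusted p = 0.660), and 0 genes of the array passed. Slide and group cannot be told apart in the unblocked value. At the brightest probe the call was also lost without WT+MI 1, WT+MI 2, TG+MI 1 or TG+MI 3, with differences between 0.86 and 1.29, and at the second probe without WT+MI 1, TG+MI 1 or TG+MI 3. TG+MI minus TG was -0.03 ± 0.27, with a 95% interval from -0.63 to 0.57. The interaction was 1.07 ± 0.38 (adjusted p = 0.0910) and, at the second probe, 0.93 ± 0.26 (adjusted p = 0.0534), so the infarction responses of the 2 genotypes were not shown to differ at the threshold.

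**Figure D2:**
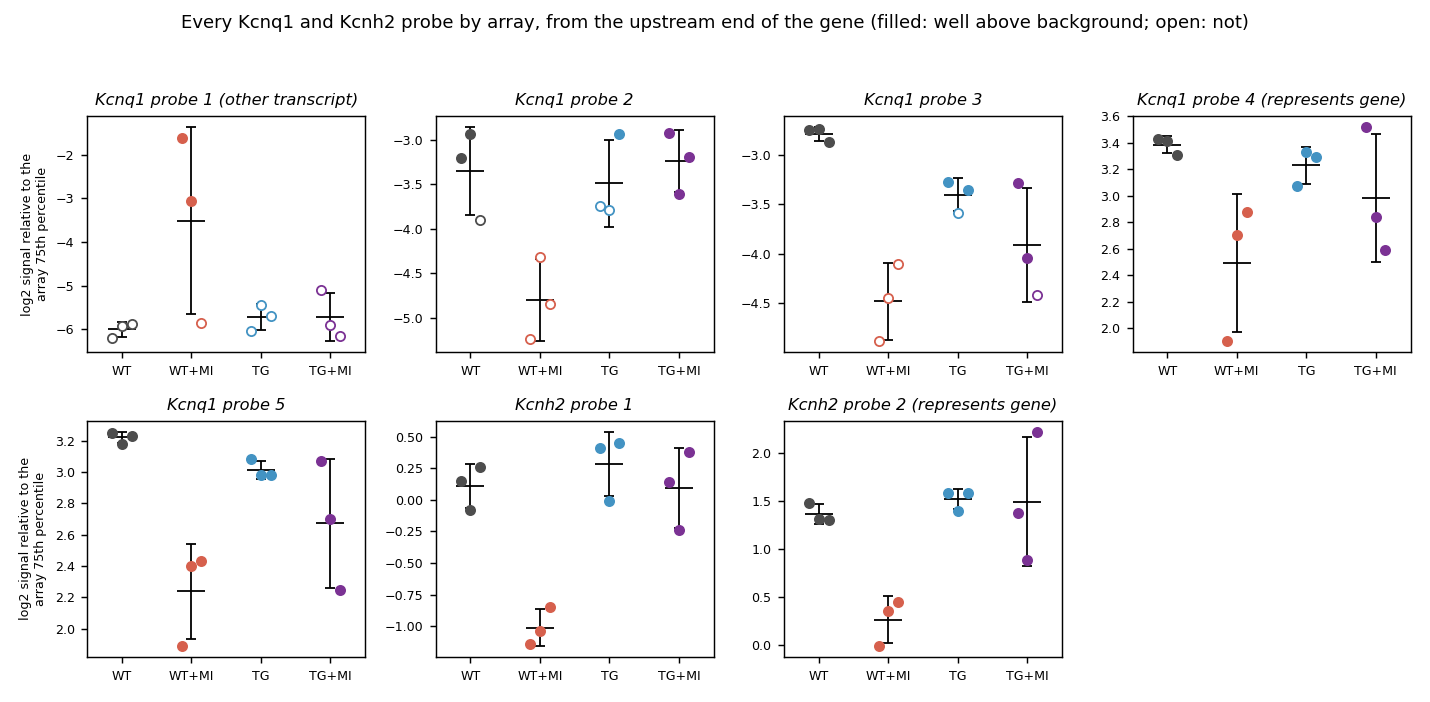
Log2 level relative to the array's 75th percentile for every Kcnq1 and Kcnh2 probe, with 1 point per array, bars for group mean ± SD (n = 3), open points not well above background, and an axis range of its own in each panel. The WT+MI points lie below all WT points at every probe but the upstream Kcnq1 probe of another transcript, where WT+MI 1 and WT+MI 2 are high.

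Kcna5, the pore of the ultrarapid current, did not pass the test in any comparison. WT arrays read -0.09, -0.41 and -0.29, and WT+MI arrays -0.28, -0.40 and -0.49, which overlap. TG arrays read 0.24, 0.97 and 0.47, all above every WT array. TG+MI arrays read -0.17, -0.06 and 0.80, and ran from the WT range into the TG range. WT+MI minus WT was -0.13 ± 0.25, with a 95% interval from -0.69 to 0.43 and an adjusted p of 0.701 from limma. TG minus WT was 0.82 ± 0.25 with an adjusted p of 0.126. Without TG+MI 3, which enters that comparison only through the shared estimate of spread, the adjusted p was 0.0354.

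Kcnv2, the modifying alpha subunit, was well above background on 0 of 12 arrays, with levels between -5.92 (TG+MI 3) and -4.47 (TG 3), and was not tested.

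Kcne1, the subunit that turns Kcnq1 into the slow IKs channel, was highest in TG hearts. TG arrays read 1.65, 1.86 and 1.63, above all other arrays. WT arrays were wide apart, at 0.19, -0.60 and 0.85. WT+MI arrays read -0.74, -0.69 and -1.43, all below every WT array, and TG+MI arrays 0.67, -0.90 and -0.36. Kcne1 fell by 1.91 ± 0.42 in TG+MI against TG, a 3.76-fold lower signal, with an adjusted p of 0.0213 from limma with Benjamini-Hochberg adjustment. With slide as a block it was -1.83 ± 0.63 (adjusted p = 0.265), and on slide 2 alone, where TG 3 was the only TG array, -1.83 ± 0.64 (adjusted p = 0.541). The call was also lost without TG 1, TG 2, TG 3 or TG+MI 2.

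Kcne1 passed no other comparison. WT+MI minus WT was -1.10 ± 0.42 with an adjusted p of 0.0517, and passed in 6 of 25 alternatives. TG minus WT was 1.57 ± 0.42 with an adjusted p of 0.0857 from limma. TG+MI minus WT+MI was 0.76 ± 0.42 (adjusted p = 0.232) and the interaction -0.81 ± 0.60 (adjusted p = 0.367).

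The summed levels of fibroblast markers and of nerve and Schwann cell markers were highest in TG, as Kcne1 was. The 8 fibroblast markers were all well above background on every array. Their log2 summed level was 8.53 to 8.93 in TG, 8.05 to 8.24 in WT, 7.84 to 7.88 in TG+MI and 7.46 to 7.80 in WT+MI. Of the 8, 4 were lower in TG+MI than in TG. Marker by marker, the median difference was -0.28 in TG+MI against WT+MI, where the sum was higher, and -0.1 in WT+MI against WT. The nerve and Schwann cell markers, 7 of 9 well above background on every array, summed to 3.52 to 3.80 in TG, 3.13 to 3.34 in WT, 2.48 to 2.66 in TG+MI and 2.44 to 2.91 in WT+MI. Of the 7 tested, 3 were lower in TG+MI than in TG, while in WT+MI against WT 3 were lower and 2 higher. In TG against WT 0 of the 7 passed in either direction, with a median difference of 0.32, and Th read lower on every TG array than on any WT array. The sinoatrial and nodal markers also summed highest in TG, at 3.52 to 3.72, beside 2.80 to 3.02 in WT. Their sum was 2.88 to 3.14 in WT+MI and 3.11 to 3.38 in TG+MI, and 0 of the 6 tested passed in TG against WT. The summed atrial markers were high on the TG arrays too, as given above. On the 2 infarcted arrays with a high atrial sum Kcne1 was not high, at -0.74 on WT+MI 1 (atrial sum 8.29) and -0.90 on TG+MI 2 (atrial sum 6.39). The part of fibroblast, nerve, nodal or atrial RNA in the level of Kcne1 was not tested. With both of those arrays left out, an alternative chosen after the data were seen, Kcne1 differed by -1.56 ± 0.44 in TG+MI against TG, with an adjusted p of 0.0793.

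Kcne2, a subunit that binds Kcnh2 and other pores, was well above background on 0 of 12 arrays. Its levels lay between -6.09 (TG 1) and -4.89 (WT+MI 2), and it was not tested.

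Kcne3, a subunit best known for holding Kcnq1 open in epithelia, rose most among the members after infarction in wild-type hearts. WT arrays read -3.82, -3.20 and -3.39. WT+MI arrays read 0.27, -0.96 and -2.38, all above every WT array but far apart from each other. TG arrays read -3.83, -4.70 and -3.73 and were not well above background. TG+MI arrays read -2.05, -2.09 and -3.32, with TG+MI 3 inside the WT range. Kcne3 rose by 2.45 ± 0.59 in WT+MI against WT, a 5.45-fold higher signal, with an adjusted p of 0.00659 from limma with Benjamini-Hochberg adjustment. It passed in all 24 alternatives that tested it, with differences between 1.03, after normexp background correction, and 3.12.

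In transgenic hearts Kcne3 was at least 2.06-fold higher in TG+MI than in TG, a bound set by the TG arrays, and did not pass the test (adjusted p = 0.117). TG+MI minus WT+MI was -1.46 ± 0.59, with a 95% interval from -2.76 to -0.17 and an adjusted p of 0.111 from limma. It passed at -2.14 (adjusted p = 0.0235) without WT+MI 3. The neutrophil markers moved in the same arrays. Their log2 summed level was 9.14, 8.61 and 8.58 in WT+MI, between 7.59 and 7.76 in TG+MI, between 7.13 and 7.30 in WT and between 6.87 and 6.99 in TG. All 8 neutrophil markers were well above background on every infarcted array, while 5 of 8 were on every uninfarcted array of WT and of TG, and Cxcr2 was on none of these 6. Of 11 macrophage and monocyte markers, 3 were higher in WT+MI than in WT and 3 lower in TG+MI than in WT+MI. Their log2 summed level was 8.44, 8.36 and 7.93 in WT+MI, 7.95 to 8.08 in TG+MI, 7.77 to 7.86 in WT and 7.86 to 8.13 in TG. The part of neutrophil or macrophage RNA in the Kcne3 level was not tested.

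Kcne4, a subunit that can silence Kcnq1 and some Kv1 pores, also rose after infarction in wild-type hearts. WT arrays read -3.34, -3.44 and -3.88, the last not well above background. WT+MI arrays read -1.06, -1.78 and -2.26, all above every WT array. TG arrays read -2.72, -2.58 and -3.31, between the WT and WT+MI values. TG+MI arrays read -2.58, -2.15 and -1.05, overlapping both TG and WT+MI. Kcne4 rose by 1.85 ± 0.40 in WT+MI against WT, a 3.61-fold higher signal, with an adjusted p of 0.00398 from limma with Benjamini-Hochberg adjustment. It passed in all 24 alternatives that tested it, with differences between 0.61 and 2.13, the lowest of them after normexp background correction. TG minus WT was 0.69 ± 0.40 (adjusted p = 0.408), TG+MI minus TG 0.94 ± 0.40 (adjusted p = 0.171), and TG+MI minus WT+MI -0.23 ± 0.40 with a 95% interval from -1.12 to 0.66.

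Kcnab1, a cytoplasmic beta subunit that speeds inactivation of Kv1 channels, was spread widest in TG hearts. TG arrays read 0.38, -0.43 and -1.32, all above every WT array, which read -1.54, -1.44 and -1.79. WT+MI arrays read -2.57, -2.16 and -1.42, and TG+MI arrays -1.72, -1.75 and -2.07. Kcnab1 fell by 1.40 ± 0.39 in TG+MI against TG, with an adjusted p of 0.0496 from limma with Benjamini-Hochberg adjustment, at the edge of the threshold. It kept that call in 6 of 25 alternatives. TG 3, the lowest TG array, is the one on slide 2. With slide as a block the difference was -0.53 ± 0.42 (adjusted p = 0.656), and the arrays of slide 2 by themselves gave -0.53 ± 0.25 (adjusted p = 0.671). TG minus WT was 1.14 ± 0.39 with an adjusted p of 0.162, and 1.57 ± 0.33 with an adjusted p of 0.0524 once slide was a block.

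The smooth muscle and pericyte markers had a log2 summed level of 7.61 on TG 1 and 7.41 on TG 2, above every WT array (6.93 to 7.13), and of 7 on TG 3, inside the WT range. It was 6.32 to 6.50 in WT+MI and 6.59 to 6.81 in TG+MI, and 4 of the 8 tested were lower in TG+MI than in TG. Marker by marker, 3 of the 8 were higher and 0 lower in TG against WT, with a median difference of 0.08. Rgs5 and Smtn read lower on every TG array than on any WT array. Of these 9 markers, 8 were well above background on every array. Their part in the Kcnab1 level was not tested. The other Kcnab1 probe, A_55_P2713810, belongs to another transcript record and was well above background on 5 of 12 arrays, including all 3 TG+MI arrays at -3.92, -3.72 and -3.42. It was measured on 1 of 3 TG arrays and on 0 of 3 WT arrays, so no difference is given for it.

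**Figure D3:**
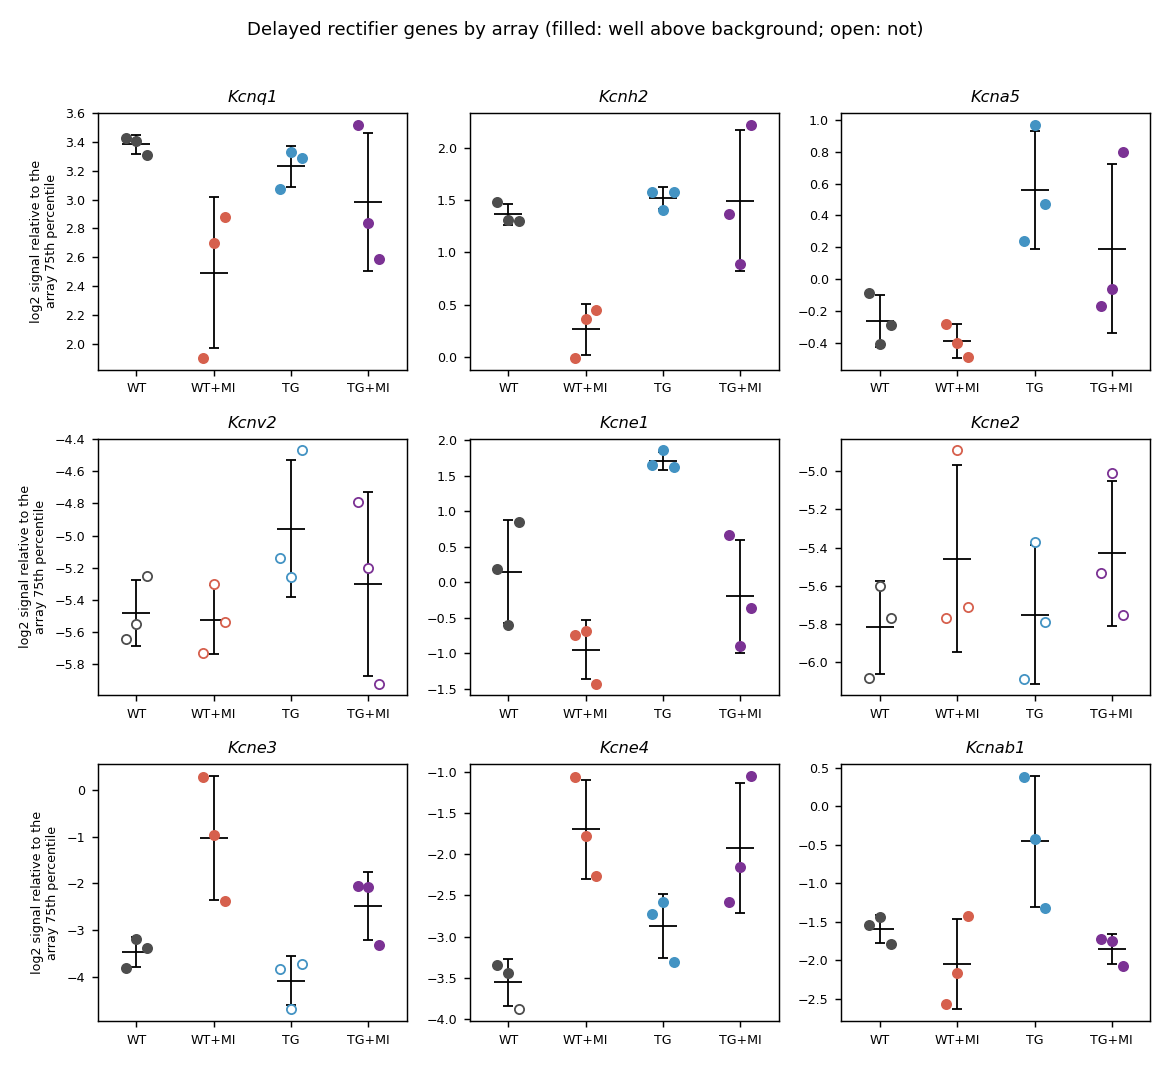
Log2 level relative to the array's 75th percentile for the 9 members, at the brightest probe of each, with 1 point per array, bars for group mean ± SD (n = 3), open points not well above background, and an axis range of its own in each panel. Kcnv2 and Kcne2 have open points only, WT+MI is below WT for Kcnq1 and Kcnh2 and above it for Kcne3 and Kcne4, and Kcne1 is highest on the 3 TG arrays.

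**Figure D4:**
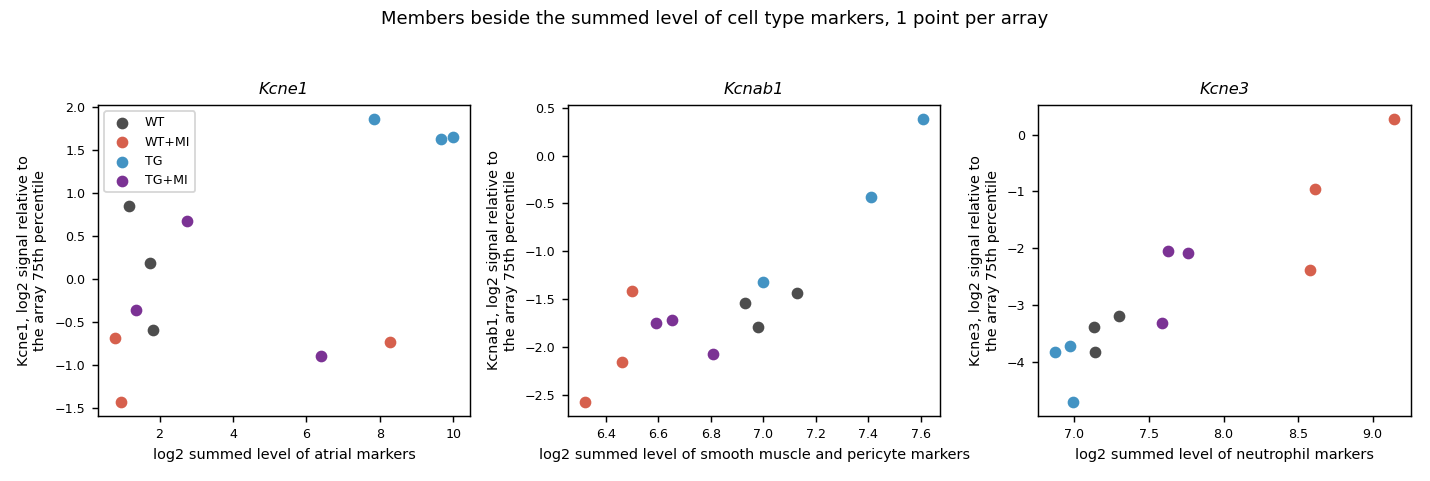
Log2 level of Kcne1, Kcnab1 and Kcne3 relative to the array's 75th percentile, against the log2 summed level of atrial, smooth muscle and pericyte, and neutrophil markers, with 1 point per array in the colour of its group. The TG arrays are high on both axes for Kcne1 and the atrial markers, while WT+MI 1 and TG+MI 2 have high atrial sums (8.29 and 6.39) with low Kcne1 (-0.74 and -0.90).

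Other voltage-gated alpha subunits and the partners of the delayed rectifiers were read from lists of the pathway. Of 32 further Kv alpha genes, 15 were tested. In WT+MI against WT 0 rose and 6 fell, with a median difference of -0.35 over the 15, where 47.9% of all genes passed. Kcna1 fell by 1.24 ± 0.25 (adjusted p = 0.00247, limma with Benjamini-Hochberg adjustment here and below). In TG against WT, Kcna1 and Kcna6, both Kv1 pores that can combine with Kcna5 and bind Kcnab1, were the 2 that passed, and both were higher by 1.24 (adjusted p = 0.0276 and 0.0395). Of all genes, 2.62% passed there, and with slide as a block 0 of the 15 passed. The same 2 genes passed in TG+MI against TG, where 8.85% of all genes passed. Kcna1 fell by 1.70 ± 0.25 (adjusted p = 0.00345) and Kcna6 by 2.01 ± 0.27 (adjusted p = 0.00256), and 0 of the 15 passed with slide as a block. The summed nerve and Schwann cell markers given beside Kcne1 were high in TG and lower in TG+MI too, though 0 of the 7 tested passed in TG against WT. Their part in the 2 genes was not tested. The comparison of TG+MI with WT+MI called 2 of the 15, both higher, where 12.2% of all genes passed. In the interaction 1 of the 15 passed, where 8.90% of all genes did. Under the slide block 0 of the 15 passed either comparison.

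Among 24 genes that assemble, phosphorylate, anchor or degrade delayed rectifier channels, 22 were tested, and in WT+MI against WT 2 rose and 8 fell, a share called near that of all genes. Rnf207, a cardiac ubiquitin ligase that acts on the Kcnh2 channel, fell by 2.40 ± 0.28 (adjusted p = 0.000234). Its WT arrays read 5.03, 5.07 and 5.17, its WT+MI arrays 1.96, 2.84 and 3.28, its TG arrays 4.74, 4.78 and 4.83, and its TG+MI arrays 3.83, 3.18 and 3.7, so that WT, TG, TG+MI and WT+MI stood in this order with an overlap between the infarcted groups only. Kcne1l, the X-linked relative of the Kcne genes, was not well above background on any WT+MI array and was at least 1.35-fold higher in WT. It is 1 of the 8, but entered the test through WT and TG, where it is bright, so its p is not given. Cav3, the muscle caveolin, rose by 0.55 ± 0.15 (adjusted p = 0.0107). Sgk1, a kinase that raises Kcnq1 and Kcne1 current at the membrane, was higher by 1.90 ± 0.38 in TG than in WT (adjusted p = 0.0303), with TG arrays at 4.73, 5.78 and 5.28 and WT arrays at 3.46, 3.15 and 3.49. Pde4d, a phosphodiesterase held near the IKs channel, was higher by 0.64 ± 0.16 in TG+MI than in WT+MI (adjusted p = 0.0344) and passed the interaction at 0.98 ± 0.22 (adjusted p = 0.0367). Sgk3 was higher by 0.66 ± 0.16 in TG+MI than in WT+MI (adjusted p = 0.0336). Of the 22, 1 passed in TG against WT (2.62% of all genes) and 2 in TG+MI against WT+MI (12.2%). In TG+MI against TG 2 passed (8.85%), and in the interaction 1 (8.9%). Outside WT+MI against WT, the fit with slide as a block called 1 gene of this list, in TG+MI against TG.

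Genes of other cardiac currents were read from 3 further lists in infarcted wild-type hearts, where 29.3% of all genes fell and 18.6% rose. Of 9 tested genes of the transient outward current, 0 rose and 4 fell, with a median difference of -0.65. Kcnip2, its cardiac beta subunit, fell by 2.48 ± 0.33 (adjusted p = 0.000405) and Kcnd2, its pore, by 1.90 ± 0.23 (adjusted p = 0.000272), while Kcnd3 fell by 0.65 ± 0.12 and Kcnip1 by 0.71 ± 0.22. Of 13 tested inward rectifier and K2P (leak channel) genes, 2 rose and 10 fell, with a median of -1.10. Abcc8, the sulfonylurea receptor, fell by 1.65 ± 0.23 (adjusted p = 0.000487) and the background channel Kcnk3 by 1.60 ± 0.24 (adjusted p = 0.000617), whereas Kcnk13 rose by 1.17 ± 0.23 and Kcnk6 by 0.79 ± 0.11. Of 11 tested sodium, calcium and pacemaker genes, 0 rose and 5 fell, among them Scn4b by 1.69 ± 0.36 and Cacna1c by 0.88 ± 0.33, and Hcn2 by 0.40 ± 0.11. With slide as a block 3 of the 11 fell. The shares called in the first and the last of these lists lie near the 47.9% of all genes, and for all genes tested the median difference was -0.14. The cardiomyocyte markers that fell beside Kcnq1 were lower on these arrays too.

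In infarcted transgenic hearts, genes of the first 2 lists passed against infarcted wild-type hearts, where 12.2% of all genes passed, 7.79% higher, and 8.90% passed the interaction. Of the 11 sodium, calcium and pacemaker genes 0 passed either by limma, with 1 at an unadjusted p under 0.05 in TG+MI against WT+MI and 3 in the interaction. In TG+MI against WT+MI 4 of the 9 transient outward genes passed, all higher, with Kcnip2 at 1.44 ± 0.33 (adjusted p = 0.0313), Kcnd2 at 1.19 ± 0.23 (adjusted p = 0.0277) and Kcnip1 at 0.77 ± 0.22 (adjusted p = 0.0456). The same 4 genes passed the interaction, Kcnip2 at 1.73 ± 0.47 (adjusted p = 0.0478). Of the 13 inward rectifier and K2P genes 5 were higher, led by Kcnk3 at 1.07, Abcc8 at 1.06 and Kcnj12 at 1.05, and 6 passed the interaction upwards and 1 downwards. Kcnj4, an inward rectifier and 1 of the 6, was well above background on every WT and TG+MI array and on 0 WT+MI and TG arrays, so its interaction has no measured size. Kcnj4 was at least 1.21-fold higher in WT than in TG. It entered the test only through WT and TG+MI, where it is bright, so its p is not given. With slide as a block, 0 genes of these lists passed TG+MI against WT+MI or the interaction.

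Genes that lie beside the members on the chromosome did not share one direction. Of 6 tested genes beside Kcnq1 in its imprinted region, 1 rose and 2 fell in WT+MI against WT, where 47.9% of all genes passed. Cdkn1c, a cell cycle inhibitor expressed from the maternal allele, fell by 1.81 ± 0.21 (adjusted p = 0.000208), Cd81 fell by 0.61 ± 0.14 and Tssc4 rose by 0.58 ± 0.13. Cdkn1c was 1.99-fold higher in TG+MI than in WT+MI (adjusted p = 0.0285), the 1 of these 6 genes that passed there, where 12.2% of all genes passed. With slide as a block 0 of the 6 passed in TG+MI against WT+MI. Of 5 tested genes beside Kcne1 and Kcne2, 1 rose and 2 fell in WT+MI against WT. Rcan1, an inhibitor of calcineurin, rose by 1.63 ± 0.24 (adjusted p = 0.000567), while Smim11 fell by 0.88 ± 0.15 and Mrps6 by 0.44 ± 0.13.

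Over the 12 arrays the members did not vary as a block. Pearson's r, given as a description over arrays that share groups and slides, was 0.56 between Kcnq1 and Kcnh2, 0.53 between Kcnq1 and Kcne1, -0.85 between Kcnq1 and Kcne4, and -0.80 between Kcnh2 and Kcne3. Among 15128 genes compared, the profiles nearest to Kcnq1 were Garem1 (r = 0.975) and Thra (0.973), the thyroid hormone receptor alpha. Nearest to Kcnh2 were Arl4d (0.972) and the carbonic anhydrase Car14 (0.966). Kcne1 was nearest to Itgbl1 (0.946) and Casq1 (0.943), a calsequestrin, and Kcne3 to 6330407A03Rik (0.976) and Spint1 (0.972), a protease inhibitor. Kcne4 was nearest to Sphk1 (0.976), a sphingosine kinase, and Tmed5 (0.970), Kcna5 to A330023F24Rik (0.945) and Mcf2l (0.937), and Kcnab1 to Mylk (0.979), the myosin light chain kinase of smooth muscle, and Gabra3 (0.970).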

How the data were processed

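Per the file headers, spot intensity was read and background-subtracted with Agilent Feature Extraction 12.0.3.1, and the processed Cy3 intensity was deposited by the authors on a linear scale, not normalized between arrays. A deposited table of the same arrays holds log2 values with column medians of 4.22 to 4.23. Its normalization is not stated in the labels or files, and it was used as an alternative. limma is named in the submitters' processing notes, with no version. WT+MI 2 and WT+MI 3 were placed by their characteristics, since their titles differ in form from that of WT+MI 1.

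Deposited intensity was taken to log2, spots of a probe were averaged without outlier spots (49 probes left out), and each array's 75th percentile was subtracted. Probe coordinates are on mm9, per the files. Names were updated through a RefSeq table (32994 probes by accession, 10224 by symbol, 520 by synonym, 12867 unchanged). The probe of highest mean stood for a gene, and a gene was tested if that probe passed the scanner's background call throughout 1 group or more (19761 of 36981 genes). A group-means model over all 12 arrays was fitted with limma 3.58.1 in R 4.3.3 (statmod 1.5.0, data.table, version 1.17.8), tested on simulated data, with Benjamini-Hochberg adjustment and a threshold of 0.05. Promoters were matched to RefSeq by symbol for 6 of 9 members, leaving Kcnq1, Kcne1 and Kcnv2. Alternatives were the scaling, background correction, dim-probe filter, choice of probe, slide and replicate blocks, samples in the fit and each array left out. Named were all members, the list genes with the 2 largest and 2 smallest called differences in WT+MI against WT, up to 3 called per list elsewhere, and the 2 genes nearest each tested member by Pearson's r. Some genes that this rule names are not reported here. Members and lists were chosen with earlier results of these data known. The number of arrays limits the precision.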

Additional observations from a re-analysis of the deposited data

How the results depend on the processing

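In WT+MI against WT, the calls of Kcnh2, Kcne3 and Kcne4 held under every alternative that tested them, and the count of members called stayed between 3 and 5. Kcne3 and Kcne4 were not tested where a probe had to be well above background on all 12 arrays. The Kcnq1 call was lost in 5 of 25. In TG against WT, 1 member passed after normexp background correction. The genes called there, 518 in the report, numbered 205 with no filter on dim probes, 320 with slide as a fixed block and 904 with only the groups compared, and 147 to 833 with 1 array left out (members 0 to 1). In TG+MI against WT+MI, members called were 0 with no filter on dim probes, with slide as a fixed block and with only the groups compared, 2 with every probe tested, and 0 to 2 with 1 array left out. The 2405 genes called there became 14, 0 and 0 under the first 3 of these, 4233 with slide as a random block, and 0 to 3495 with 1 array left out.

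In TG+MI against TG, members called were 1 under quantile normalization, median centring, the authors' value table, no filter on dim probes, the mean of all probes of a gene and only the groups compared, 0 with slide as a fixed block, within a slide and without WT+MI 1 and TG+MI 2, and 0 to 2 with 1 array left out. The 1749 genes called there became 955 with no filter on dim probes, 119 with slide as a fixed block, 0 within a slide, 690 with only the groups compared, 1120 without WT+MI 1 and TG+MI 2, and 672 to 2288 with 1 array left out. For the interaction, 1 member (Kcnh2) passed without WT+MI 1 and TG+MI 2, and 0 to 1 with 1 array left out. Its 1758 genes became 1129 under median centring, 55 with no filter on dim probes, 3 with slide as a fixed block, and 63 to 2671 with 1 array left out. Leaving out WT+MI 1 and TG+MI 2 was chosen after the data were seen.

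Signs turned only for differences short of the threshold. Kcnab1 in WT+MI against WT was 0.03 with the mean of all probes. In TG+MI against WT+MI, Kcnab1 was -0.04 after normexp, -0.06 without WT+MI 1 and -0.11 without WT+MI 1 and TG+MI 2, and Kcne4 was 0.44 with slide as a fixed block, 0.09 without WT+MI 1, 0.10 without TG+MI 1 and 0.21 without WT+MI 1 and TG+MI 2. Kcnh2 in TG+MI against TG was 0 without TG 1, 0.01 without TG 3, 0.03 without TG+MI 1, and 0.27 without TG+MI 2 and without both WT+MI 1 and TG+MI 2. Over the arrays left out in turn, Kcnab1 ran from -0.06 to 0.52 and Kcne4 from -0.67 to 0.10 in TG+MI against WT+MI, and Kcnh2 from -0.39 to 0.27 in TG+MI against TG. The cause of these changes was not tested.

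Groups share replicate numbers, but same-numbered arrays did not deviate together (correlations of -0.26 to 0.09). No pairing by number was seen, though with 3 arrays per group a weak one could be missed. With the replicate number as a block, members called were 1 in TG+MI against TG, and genes called were 342 in TG against WT and 1156 for the interaction. Members near background (Kcne3, Kcne4 and the upstream Kcnq1 probes) are limited by their signal, and Kcne2 and Kcnv2 have no measured level.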
